A study of Mus musculus with 6 samples.

Results

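Immunoglobulin variable (V) segments are the germline pieces from which the antigen-binding end of every antibody chain is built, and their transcripts were counted here in endometriosis-like lesions of mice. The segments were chosen by symbol, as every counted gene whose name begins with Ighv, Igkv or Iglv and a digit. This took 348 of the 41786 genes in the tables: 183 heavy-chain segments (Ighv) on chromosome 12, 162 kappa light-chain segments (Igkv) on chromosome 6 and 3 lambda light-chain segments (Iglv) on chromosome 16. The study treated recipient mice with niclosamide, an anthelmintic drug, or with vehicle, and sequenced RNA of the lesions. Lesions were made by suturing uterus of a 6-week-old B6-GFP donor onto the inner body wall (peritoneum) of wild-type recipients that were 8 weeks old and matched for cycle stage. All mice were C57BL/6 females. Both groups were left for 3 days before daily dosing began.

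The niclosamide group received 200 mg/kg daily for 3 weeks and the vehicle group received vehicle over the same 3 weeks, with 3 libraries each. Recipients were killed in diestrus, and the uterine-derived tissue was taken off the host tissue before RNA extraction. RNA of 4 mice went into vehicle 1, whereas the remaining libraries represent 1 mouse each. A pool can hold the antibody-forming cells of several animals, so vehicle 1 is not equivalent to the single-mouse libraries in any measure of repertoire. The counts do not separate donor from recipient cells. Total counts were 27797121 to 34797000 per library. A count of 0 allows up to 3 counts, which is 0.0862 to 0.108 CPM on unscaled library totals (CPM is a count relative to the library total). Such limits, and all confidence intervals given, cover counting error only. The p-values measure the spread among 3 libraries per group.

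In a developing B cell, V segments are joined to diversity (D, heavy chain only) and joining (J) segments, so that each B cell and its descendants transcribe 1 assembled heavy-chain and usually 1 assembled light-chain gene. A B cell that meets its antigen can divide into a clone and mature into antibody-secreting plasma cells, which carry far more immunoglobulin RNA per cell than resting B cells. In bulk RNA, high counts of a few V segments therefore mark a concentrated repertoire, but V segment usage alone does not identify clones, because unrelated cells can use the same segment. In such bulk samples fewer cells of a type and less RNA per cell cannot be told apart.

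The germline sequences of the 8 V exons on which the account of concentration turns are given first, since reads are assigned to a segment by these letters. They are the 3 leading heavy segments of niclosamide 2 (Ighv3-6, Ighv1-81 and Ighv14-3), its 2 leading kappa segments (Igkv12-41 and Igkv17-127), the leading heavy and kappa segments of niclosamide 1 (Ighv1-55 and Igkv8-21), and Igkv1-117, which led in both niclosamide 3 and vehicle 2. Each is read 5′ to 3′ along the coding strand from GENCODE M21 transcripts of build GRCm38, cut to the exon that was counted and to its last 300 bases where it is longer. Capitals mark the codon of the conserved second cysteine, after which the sequence joins to D or J. Germline letters are shown, and mutations in the rearranged transcripts were not analysed here.
Ighv3-6 (chr12:114288152-114288447, minus strand): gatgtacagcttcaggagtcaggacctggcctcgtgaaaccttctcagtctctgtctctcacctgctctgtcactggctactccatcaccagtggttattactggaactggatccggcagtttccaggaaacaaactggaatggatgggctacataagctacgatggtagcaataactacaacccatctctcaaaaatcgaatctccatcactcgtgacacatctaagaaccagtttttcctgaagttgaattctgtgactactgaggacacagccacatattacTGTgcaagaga
Ighv14-3 (chr12:114059845-114060144, minus strand): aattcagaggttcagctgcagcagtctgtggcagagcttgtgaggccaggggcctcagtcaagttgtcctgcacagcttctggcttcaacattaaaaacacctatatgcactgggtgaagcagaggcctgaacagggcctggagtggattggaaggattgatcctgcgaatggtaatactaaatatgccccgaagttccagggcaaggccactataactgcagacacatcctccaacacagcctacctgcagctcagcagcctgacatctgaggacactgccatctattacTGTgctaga
Ighv1-55 (chr12:115208137-115208399, minus strand): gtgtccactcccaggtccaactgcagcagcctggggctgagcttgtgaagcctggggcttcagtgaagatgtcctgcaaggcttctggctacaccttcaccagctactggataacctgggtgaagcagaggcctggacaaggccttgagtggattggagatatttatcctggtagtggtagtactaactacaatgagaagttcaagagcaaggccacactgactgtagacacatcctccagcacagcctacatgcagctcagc
Ighv1-81 (chr12:115920279-115920572, minus strand): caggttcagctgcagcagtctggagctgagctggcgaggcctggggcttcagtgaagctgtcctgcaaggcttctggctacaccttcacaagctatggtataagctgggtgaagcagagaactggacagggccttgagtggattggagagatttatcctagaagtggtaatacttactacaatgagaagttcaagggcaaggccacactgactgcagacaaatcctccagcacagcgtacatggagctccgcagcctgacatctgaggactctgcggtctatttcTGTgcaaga
Igkv12-41 (chr6:69858420-69858717, minus strand): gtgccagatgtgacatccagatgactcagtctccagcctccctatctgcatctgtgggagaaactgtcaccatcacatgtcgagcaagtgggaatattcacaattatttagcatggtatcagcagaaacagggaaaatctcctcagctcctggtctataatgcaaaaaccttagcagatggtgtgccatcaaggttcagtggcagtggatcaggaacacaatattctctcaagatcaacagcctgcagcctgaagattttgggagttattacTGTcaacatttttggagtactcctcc
Igkv17-127 (chr6:67861362-67861659, plus strand): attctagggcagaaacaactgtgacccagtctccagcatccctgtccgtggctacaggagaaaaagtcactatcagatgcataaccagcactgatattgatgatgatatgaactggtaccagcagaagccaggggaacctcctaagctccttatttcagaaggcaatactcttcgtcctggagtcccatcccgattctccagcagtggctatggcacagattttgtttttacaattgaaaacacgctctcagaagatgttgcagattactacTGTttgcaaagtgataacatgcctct
Igkv8-21 (chr6:70314895-70315194, minus strand): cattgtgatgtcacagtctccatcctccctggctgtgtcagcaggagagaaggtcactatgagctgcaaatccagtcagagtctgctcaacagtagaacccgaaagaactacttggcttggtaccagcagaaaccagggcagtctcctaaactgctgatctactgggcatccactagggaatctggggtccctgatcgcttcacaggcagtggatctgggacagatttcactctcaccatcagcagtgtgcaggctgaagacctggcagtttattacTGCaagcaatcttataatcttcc
Igkv1-117 (chr6:68121526-68121825, plus strand): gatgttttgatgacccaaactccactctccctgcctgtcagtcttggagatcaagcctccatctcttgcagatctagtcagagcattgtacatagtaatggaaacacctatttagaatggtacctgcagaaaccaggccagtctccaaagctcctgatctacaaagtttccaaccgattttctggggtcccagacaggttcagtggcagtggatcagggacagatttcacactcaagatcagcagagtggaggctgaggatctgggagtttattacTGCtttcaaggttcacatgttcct
No capitals appear in Ighv1-55, whose counted exon ends before that codon. These segments are far apart in sequence: the 4 heavy exons were 50.3% to 76.7% identical to each other, and the 4 kappa exons 57.6% to 70.1%. Within their own families some had close relatives. Igkv17-127 was 98.0% identical to Igkv17-121, and Igkv1-117 was 96.8% identical to Igkv1-110, whereas Ighv3-6 had no closer relative than Ighv3-2 at 92.9%. Reads that align to several places were left out by the counter's defaults, so close relatives are undercounted. Of windows of 50 bases, 97.1% were unique among V segments in Ighv3-6, 60.2% in Igkv17-127 and 50.1% in Igkv1-117, so the last of these is the most exposed to this loss of the 3.

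V segment counts summed higher in each niclosamide library than in any vehicle library, although by a very narrow margin. They held 292187, 259086 and 95758 counts in niclosamide 1 to 3, against 81546, 67186 and 67140 counts in vehicle 1 to 3. On library sizes scaled by TMM (trimmed mean of M-values) this was 9931, 8008 and 2978 CPM with niclosamide, against 2973, 1845 and 2110 CPM with vehicle. Niclosamide 1 and 2 stood well above every vehicle library, and niclosamide 3 exceeded vehicle 1 by 5.08 CPM. The group means were 6972 ± 3590 CPM with niclosamide and 2310 ± 590 CPM with vehicle (SD, n = 3 each), a difference of 1.45 in mean log2 CPM. This sum was not tested, since it is a score over the chosen segments.

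**Figure D1:**
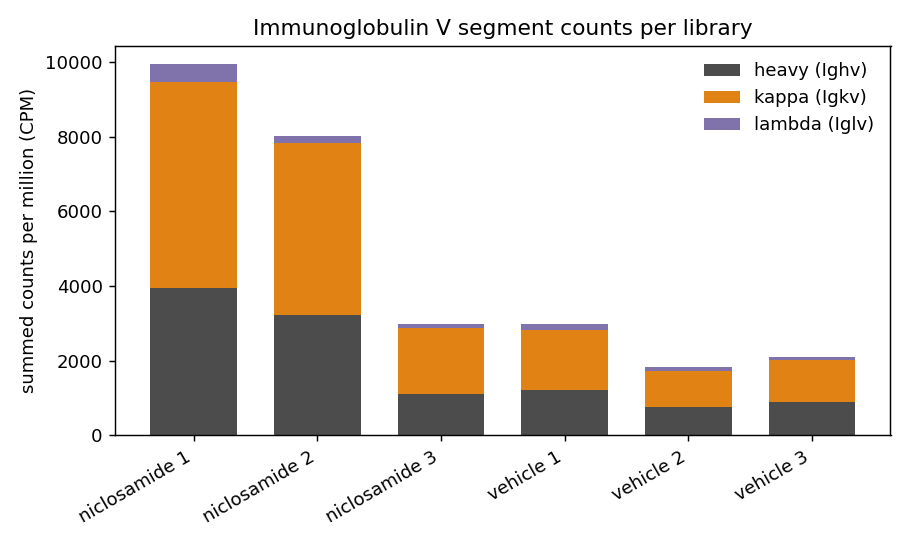
Summed V segment CPM (y axis, on TMM-scaled library sizes) in the 6 libraries, with heavy, kappa and lambda segments stacked in each bar. Niclosamide 1 and 2 reach 9931 and 8008 CPM, and niclosamide 3 at 2978 CPM is level with vehicle 1 at 2973 CPM.

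By locus, the groups did not overlap for kappa segments but overlapped for heavy and lambda segments. Heavy segments summed to 3958, 3227 and 1121 CPM with niclosamide, against 1222, 772 and 898 CPM with vehicle, so that niclosamide 3 lay below vehicle 1. Kappa segments summed to 5515, 4592 and 1755 CPM with niclosamide, against 1609, 959 and 1117 CPM with vehicle. Lambda segments summed to 457, 188 and 103 CPM with niclosamide, against 142, 114 and 96.1 CPM with vehicle.

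The balance of the chains differed slightly between the groups. The heavy share of V counts was 39.9%, 40.3% and 37.6% with niclosamide, against 41.1%, 41.9% and 42.5% with vehicle. Lambda segments made 7.65%, 3.94% and 5.54% of light-chain V counts with niclosamide, against 8.11%, 10.6% and 7.93% with vehicle. The groups did not overlap in either share, but the nearest libraries were under 1 percentage point apart in both. Iglv1, the most used mouse lambda segment, had 433, 177 and 85.0 CPM with niclosamide, against 115, 98.9 and 86.5 CPM with vehicle. It overlapped between the groups (log2 fold change 1.21 ± 0.56 SE, adjusted p = 0.773). Iglv2 had 13.3, 2.78 and 14.6 CPM with niclosamide, against 23.5, 13.0 and 6.85 CPM with vehicle. Iglv3 had 11.2, 8.44 and 3.39 CPM with niclosamide, against 3.65, 1.73 and 2.73 CPM with vehicle. Both overlapped as well, with adjusted p = 0.966 for Iglv2 and adjusted p = 0.651 for Iglv3.

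Most functional V segments were seen in every library, 168 of the 216 that are listed as V genes. Of the 348 segments, 172 had at least 1 count in all 6 libraries, 64 in 2 to 5 libraries and 26 in exactly 1, while 86 had none. GENCODE lists those 216 V genes and 130 V pseudogenes, and 2 have no entry at the same place. V genes were seen in 209 of 216 cases and held 99.9% of V counts, whereas pseudogenes were seen in 53 of 130 cases and held 0.0608%. The number of segments seen was 234, 213 and 210 with niclosamide, against 216, 202 and 208 with vehicle. The mean difference of 10.3 segments changed sign when V counts were made equal. At 67140 V counts each, the expected number was 203, 190 and 202 segments with niclosamide, against 212, 202 and 208 segments with vehicle, a mean difference of -8.73. Over all loci the groups overlapped in both forms. For the heavy locus alone they did not overlap at equal counts. At 28118 heavy V counts each, 103.0, 97.8 and 105.5 heavy segments were expected with niclosamide, against 107.1, 106 and 108.8 with vehicle. Kappa segments overlapped in this measure, and no test was made.

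Repertoire concentration set 1 library apart, niclosamide 2, rather than the treatment group. Its 10 segments of highest count held 67.7% of its V counts. The other niclosamide libraries held 36.1% and 44.4% in their top 10 segments, against 45.6%, 41.5% and 34.5% in vehicle 1 to 3. The group means were 49.4% ± 16.4 with niclosamide and 40.5% ± 5.59 with vehicle (SD, n = 3 each), a difference of 8.86 percentage points. Without niclosamide 2 the difference was -0.30 points.

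The heavy locus of niclosamide 2 was the most concentrated of the 6. Its 3 leading heavy segments held 61.7% of its heavy V counts. The leading 3 held 24.4% and 29.6% in niclosamide 1 and 3, against 29.2%, 26.2% and 26.4% in vehicle 1 to 3. The effective number of heavy segments, the inverse Simpson index, is the number of equally used segments that would give the same evenness. It was 24.8, 7.39 and 20.8 with niclosamide, against 21.6, 22.4 and 25.6 with vehicle. The other 5 libraries thus lay within 20.8 to 25.6, and the group difference of -5.53 was -0.39 without niclosamide 2.

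The kappa locus showed the same library at the same end. Its 3 leading kappa segments held 54.6% of kappa V counts in niclosamide 2. The leading 3 held 26.0% and 36.2% in niclosamide 1 and 3, against 36.2%, 35.7% and 22.6% in vehicle 1 to 3. The effective number of kappa segments was 23.6, 7.94 and 15.2 with niclosamide, against 15.9, 15.6 and 28.5 with vehicle. The kappa locus varied more among the other 5 libraries than the heavy locus did, with niclosamide 3, vehicle 1 and vehicle 2 close together and niclosamide 1 and vehicle 3 broader. The group difference of -4.41 was -0.58 without niclosamide 2 and -0.15 without vehicle 3. By effective number the pool of 4 mice, vehicle 1, was not the broadest library in either locus, but at equal V counts it had the most segments expected over all loci, at 212, and in the kappa locus, at 102.

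**Figure D2:**
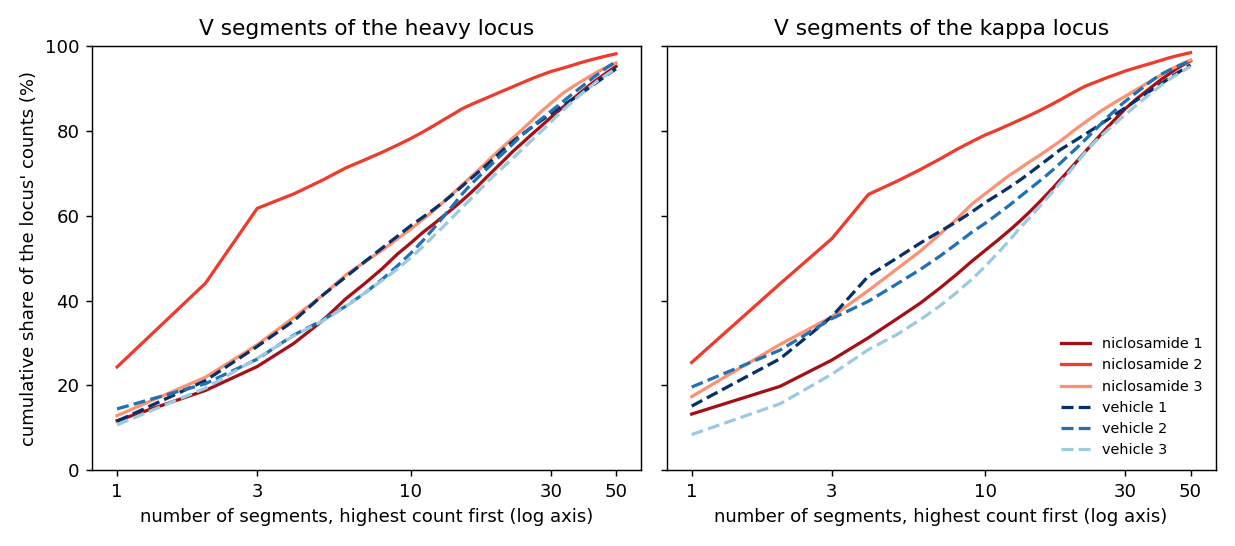
Cumulative share of heavy (left) and kappa (right) V counts held by the segments of highest count, against the number of segments on a log axis, with 1 line per library (solid for niclosamide, dashed for vehicle). The line of niclosamide 2 lies above all others in both loci, reaching 61.7% of heavy and 54.6% of kappa counts at 3 segments.

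The segments that led in niclosamide 2 were of no shared family. Ighv3-6 held 24.3% of its heavy V counts, Ighv1-81 held 19.7% and Ighv14-3 held 17.6%. Among kappa segments, Igkv12-41 held 25.4%, Igkv17-127 held 18.6%, Igkv10-96 held 10.6% and Igkv1-117 held 10.4%. Some of these were abundant in that library alone, and others were used widely. The largest half-width of a 95% Wilson interval for any share of a locus was 0.411 points for heavy and 0.416 points for kappa segments, far below these differences. As a set, the 3 heavy leaders of niclosamide 2 held 9.72% and 19.8% of heavy counts in niclosamide 1 and 3, and 13.9%, 18.2% and 14.7% in vehicle 1 to 3. Its 3 kappa leaders held 9.57% and 9.42% of kappa counts in niclosamide 1 and 3, and 4.63%, 6.71% and 7.25% in vehicle 1 to 3. They were picked by their rank in niclosamide 2, so these shares are a description. With those 6 segments left out, V segments summed to 9018, 3510 and 2591 CPM in niclosamide 1 to 3, against 2729, 1640 and 1897 CPM in vehicle 1 to 3. The groups then overlapped, with niclosamide 3 below vehicle 1.

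Ighv14-3 and Igkv17-127 were abundant in niclosamide 2 alone. Ighv14-3 had 44.7, 569 and 4.88 CPM with niclosamide, against 6.71, 4.45 and 10.5 CPM with vehicle. Igkv17-127 had 59.3, 853 and 8.12 CPM with niclosamide, against 22.1, 1.73 and 25.8 CPM with vehicle. In both, niclosamide 3 fell inside the vehicle range, and neither passed the test (adjusted p = 0.652 for Ighv14-3 and adjusted p = 0.742 for Igkv17-127). Their log2 fold changes of 4.84 for Ighv14-3 and 4.22 for Igkv17-127 were 1.76 and 1.01 without niclosamide 2. The near-identical Igkv17-121 showed 16.2, 142 and 21.4 CPM with niclosamide, against 13.4, 9.42 and 10.6 CPM with vehicle, and was also highest in niclosamide 2. It was named after its values were seen, for its closeness to Igkv17-127, and reads of the 2 segments can be confused.

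Ighv3-6 and Igkv12-41 were higher in each niclosamide library than in any vehicle library, with niclosamide 2 far above. Ighv3-6 had 136, 786 and 72.5 CPM with niclosamide, against 45.4, 24.6 and 25.7 CPM with vehicle. Igkv12-41 had 128, 1167 and 42.7 CPM with niclosamide, against 8.28, 30.2 and 20.7 CPM with vehicle. Their log2 fold changes were 3.38 ± 0.95 SE (adjusted p = 0.603) and 4.50 ± 1.34 SE (adjusted p = 0.609). Neither passed the edgeR test, while DESeq2 called both (adjusted p = 0.00435 for Ighv3-6 and adjusted p = 0.00189 for Igkv12-41). Without niclosamide 2 the log2 fold changes were 1.69 for Ighv3-6 and 2.10 for Igkv12-41.

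Ighv1-81 was a prominent heavy segment in every library. It was in the top 10 heavy segments of all 6 libraries, as was Ighv3-6, and it ranked first in niclosamide 3, vehicle 2 and vehicle 3. It had 205, 637 and 144 CPM with niclosamide, against 117, 112 and 96.0 CPM with vehicle, and the groups did not overlap (log2 fold change 1.60 ± 0.56 SE, adjusted p = 0.652). Without niclosamide 2 the log2 fold change was 0.67. As a share of heavy V counts it was lower in niclosamide 1, where it ranked 6, than elsewhere. The share was 19.7% and 12.9% in niclosamide 2 and 3, against 9.59%, 14.5% and 10.7% with vehicle. Among kappa segments, Igkv1-110 and Igkv10-96 were in the top 10 of all 6 libraries. Igkv1-110 held 5.28%, 2.27% and 12.3% of kappa counts with niclosamide, against 15.1%, 8.71% and 7.26% with vehicle, and overlapped (log2 fold change of its CPM 0.58 ± 0.56 SE, adjusted p = 0.95).

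The leading segments otherwise differed from library to library. The 3 leading heavy segments of the 6 libraries came to 13 different segments, and the 3 leading kappa segments to 10. Of the 32 heavy segments in any library's top 10, 18 were in the top 10 of 1 library, and of 27 such kappa segments, 11 were. In niclosamide 1 the leaders were Ighv1-55 with 11.7% of heavy counts (95% Wilson interval 11.5% to 11.9%), Ighv4-1 with 7.13% and Ighv1-26 with 5.63%, and among kappa segments Igkv8-21 with 13.2%. In niclosamide 3, Ighv1-81 was followed by Ighv1-26 with 9.04% and Ighv8-12 with 7.64%, and Igkv1-117 with 17.3% of kappa counts was followed by Igkv1-110 with 12.3%. These 2 libraries thus shared Ighv1-26 and Igkv1-117 among their leaders, and Igkv10-96 was among the 3 leading kappa segments in all 3 niclosamide libraries.

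The vehicle libraries shared Ighv1-81, Igkv1-117 and Igkv1-110 among their leaders with niclosamide libraries. They had others of their own, some of them close relatives of niclosamide leaders. In vehicle 1, Ighv1-82 with 11.5% of heavy counts was first, and Igkv1-110 with 15.1%, Igkv12-46 with 11.2% and Igkv12-44 with 9.92% led the kappa counts. In vehicle 2, Ighv1-81 with 14.5% was followed by Ighv1-18 with 5.95% and Ighv5-6 with 5.79%, and Igkv1-117 held 19.6% of kappa counts. In vehicle 3, Ighv1-81 with 10.7% was followed by Ighv1-19 with 8.66% and Ighv8-8 with 7.01%, and Igkv1-122 held 8.41% of kappa counts, ahead of Igkv1-110 with 7.26% and Igkv9-120 with 6.97%. The highest share of a heavy or kappa locus in a vehicle library was thus the 19.6% of Igkv1-117. The third leader of vehicle 1, Ighv5-17 with 8.04%, is uncertain, because its counted exons include some on an alternate scaffold, as do those of 11 other heavy segments.

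**Figure D3:**
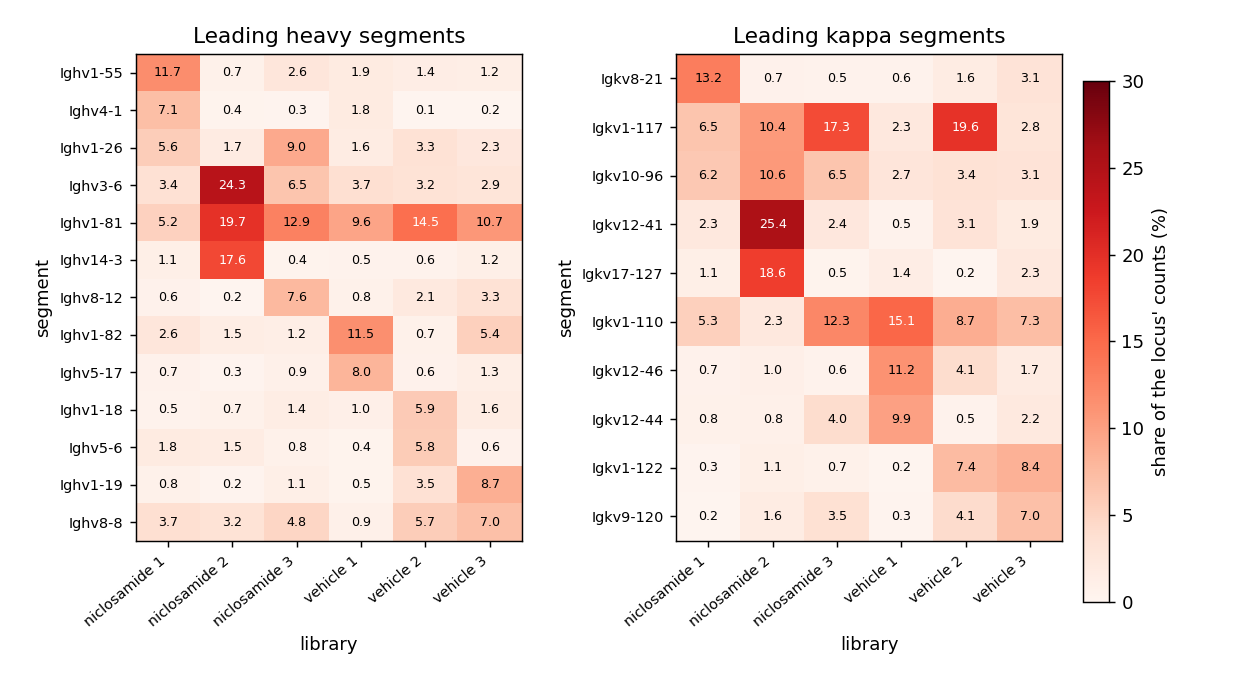
Share of the locus' V counts (colour scale and printed values, in percent) held in each of the 6 libraries by every segment that was among the 3 highest heavy (left) or kappa (right) segments of any library. Dark cells are mostly in 1 library per segment, with niclosamide 2 holding 24.3% in Ighv3-6 and 25.4% in Igkv12-41.

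Segment usage was compared between libraries as the summed smaller share of each segment, which is 100% for identical usage. It was 39.0% to 53.9% within the niclosamide group and 53.0% to 63.9% within the vehicle group, over 3 pairs each. The 5 pairs with niclosamide 2 ran from 34.3% to 47.1% and the 10 pairs without it from 47.8% to 65.3%. Usage in niclosamide 3 was most like vehicle 2, at 65.3%, a pair across the groups. Pairs share libraries, so no test was made.

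By family, the shares of Ighv3, Ighv14 and Igkv17 were by far highest in niclosamide 2, whereas Igkv12 was nearly as high in vehicle 1. Ighv1, the largest heavy family of the C57BL/6 mouse, held 65.8%, 38.7% and 52.8% of heavy V counts with niclosamide, against 59.4%, 58.4% and 58.1% with vehicle. Ighv3 held 3.86%, 24.9% and 8.26% with niclosamide, against 4.18%, 5.09% and 5.75% with vehicle, and Ighv14 held 4.11%, 18.8% and 4.71% with niclosamide, against 1.97%, 1.59% and 4.15% with vehicle. Both overlapped between the groups. The kappa family Igkv10 differed in a steadier way, with 9.74%, 11.6% and 7.17% of kappa counts with niclosamide, against 3.45%, 4.23% and 5.56% with vehicle. The groups did not overlap, and most of this family's counts were those of Igkv10-96. The heavy family Ighv10 was lower, with 0.471%, 0.208% and 1.10% of heavy counts with niclosamide, against 7.87%, 6.05% and 1.16% with vehicle, and niclosamide 3 and vehicle 3 lay next to each other.

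Segments private to 1 library carried almost no counts. Of the 26 segments seen in exactly 1 library, 19 had 1 count and 22 had 2 or fewer. Only Ighv1-32 reached 10 counts with none elsewhere, having 15 counts in vehicle 2. It was followed by Igkv14-118-2 with 6 counts in niclosamide 1 and by Ighv1-6 with 4 in niclosamide 1 and Ighv1-86 with 4 in vehicle 2, and all 4 are listed as pseudogenes. By library, 8, 3 and 2 segments were seen in niclosamide 1, 2 and 3 alone, against 7, 3 and 3 in vehicle 1, 2 and 3. Private segments therefore did not set niclosamide 2 apart.

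Dominance by 1 library was a matter of amount rather than presence. Of 180 segments with at least 50 counts in all, 18 had over 80% of their summed CPM in 1 library, and 14 of these 18 were nevertheless seen in all 6 libraries. Niclosamide 1, 2 and 3 dominated 10, 4 and 0 of them, against 0, 2 and 2 for vehicle 1, 2 and 3. They held 21.7% of the V counts of niclosamide 1 and 32.3% of those of niclosamide 2, against 1.01% of those of vehicle 2 and 1.00% of those of vehicle 3. Libraries with more V counts have a larger share of the summed CPM to begin with, which favours niclosamide 1 and 2 in this count. In niclosamide 1 the dominated segments included Ighv1-55 with 462 CPM there, 22.9 and 29.6 CPM in niclosamide 2 and 3, and 22.9, 10.6 and 11.2 CPM with vehicle. Igkv8-21 had 730 CPM in niclosamide 1, 31.8 and 9.36 CPM in niclosamide 2 and 3, and 9.12, 14.9 and 34.2 CPM with vehicle. Ighv4-1 had 282 CPM in niclosamide 1, 12.8 and 3.27 CPM in niclosamide 2 and 3, and 22.6, 1.02 and 1.89 CPM with vehicle. Each was thus 1 order of magnitude or more above the other niclosamide libraries in niclosamide 1.

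Segment by segment, none passed an adjusted p of 0.05 by edgeR or limma-voom. Of the 348 segments, 167 passed the filter on low counts and were tested, 95 were seen but not tested and 86 were not seen. edgeR's quasi-likelihood test called 0 of 17364 genes (0%) and 0 of the 167 segments, with a lowest adjusted p of 0.496 among segments. At an unadjusted p under 0.05, 37 segments were higher, beside 3.37% of all genes tested, and 2 were lower, beside 3.55%. The groups did not overlap in 29 segments that were higher, beside 5.9% of all genes, and in 1 that was lower, beside 6.37%. limma-voom also called 0, with 25 segments higher and 1 lower at an unadjusted p under 0.05, beside 2.94% and 3.89% of genes.

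The count of calls depended on the tool. DESeq2 called 21 of 155 segments, 19 higher and 2 lower, beside 0.432% of genes higher and 0.593% lower, and it gave no adjusted p for Ighv1-55, Ighv4-1 and Igkv8-21. Of the 167 tested segments, 129 had a log2 fold change above 0, beside 53.7% of all genes, and 38 below 0, beside 46.3%. It was above 1 in 97, beside 2.83%, and below -1 in 17, beside 2.52%. The median log2 fold change was 1.16 over 85 tested heavy segments, 1.50 over 79 tested kappa segments and 1.21 over the 3 lambda segments, beside 0.02 over all genes tested. Tested segments passed the filter on their own counts, and segments of 1 locus share cells and libraries, so these medians describe the libraries and are no test.

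The 3 segments with the smallest p among those higher were kappa segments that stood above the vehicle range in every niclosamide mouse. Igkv14-111 had 72.6, 115 and 73.3 CPM with niclosamide, against 27.0, 11.8 and 12.8 CPM with vehicle (log2 fold change 2.34 ± 0.39 SE, adjusted p = 0.496 by edgeR and 1.87e-05 by DESeq2). Igkv3-10 had 28.4, 8.53 and 22.7 CPM with niclosamide, against 1.17, 0.989 and 2.70 CPM with vehicle (3.62 ± 0.61 SE, adjusted p = 0.496 by edgeR and 4.94e-07 by DESeq2). Igkv10-96 had 341, 487 and 114 CPM with niclosamide, against 44.2, 32.5 and 34.4 CPM with vehicle (3.08 ± 0.53 SE, adjusted p = 0.496 by edgeR and 2.03e-06 by DESeq2). Igkv14-111 is the best isolated of them, with 100% unique windows, whereas Igkv3-10 is 98.1% identical to Igkv3-5.

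The next smallest p among segments that were higher belonged to heavy segments of low abundance. Ighv9-2 had 16.9, 4.17 and 2.33 CPM with niclosamide, against 0.438, 0.137 and 0.283 CPM with vehicle (4.77 ± 0.94 SE, adjusted p = 0.521). Ighv1-56 had 152, 19 and 66 counts with niclosamide, against 1, 1 and 3 counts with vehicle (5.53 ± 1.02 SE, adjusted p = 0.521). With so few vehicle counts the fold change of Ighv1-56 rests on single reads. Without niclosamide 1 the log2 fold changes were 3.51 for Ighv9-2 and 4.55 for Ighv1-56, and DESeq2 gave adjusted p = 3.7e-06 for Ighv9-2 and adjusted p = 4.84e-05 for Ighv1-56. Of the leading segments, Ighv1-26 of niclosamide 1 and 3 had 223, 53.8 and 101 CPM with niclosamide, against 19.2, 25.5 and 21.1 CPM with vehicle (2.52 ± 0.52 SE, adjusted p = 0.521 by edgeR and 0.000327 by DESeq2), and its log2 fold change was 1.82 without niclosamide 1. Igkv1-117 had 360, 480 and 304 CPM with niclosamide, against 36.9, 188 and 31.6 CPM with vehicle (2.16 ± 0.73 SE, adjusted p = 0.652), with 3.48 without vehicle 2. Neither overlapped between the groups.

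Among segments that were lower, those with the smallest p were mostly high in 1 or 2 vehicle libraries. Ighv1-59 had 1.53, 1.95 and 1.77 CPM with niclosamide, against 53.1, 5.22 and 9.27 CPM with vehicle (log2 fold change -3.68 ± 0.93 SE, adjusted p = 0.590 by edgeR and 0.00101 by DESeq2). It was the single one of the 167 tested segments whose niclosamide libraries all lay below the vehicle libraries. It was most abundant in the pooled library, and without vehicle 1 its log2 fold change was -2.05. Ighv10-3 had 10.5, 2.53 and 3.23 CPM with niclosamide, against 74.1, 24.6 and 3.77 CPM with vehicle, and its close relative Ighv10-1 had 8.12, 4.17 and 9.05 CPM with niclosamide, against 22.1, 22.1 and 6.66 CPM with vehicle. Both overlapped between the groups, and the log2 fold change of Ighv10-3 was -2.66, against -1.39 without vehicle 1 (adjusted p = 0.721 for Ighv10-3 and adjusted p = 0.728 for Ighv10-1). Ighv2-9 had 3.40, 0.309 and 0.653 CPM with niclosamide, against 14.6, 3.65 and 0.974 CPM with vehicle (adjusted p = 0.833). Its log2 fold change was -2.14, and -0.68 without vehicle 1. Igkv10-95 was high in vehicle 3 alone, with 0.544, 0.587 and 0.156 CPM with niclosamide, against 0.766, 0.0275 and 17.0 CPM with vehicle. Its log2 fold change of -3.78 became 0.16 without vehicle 3.

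**Figure D4:**
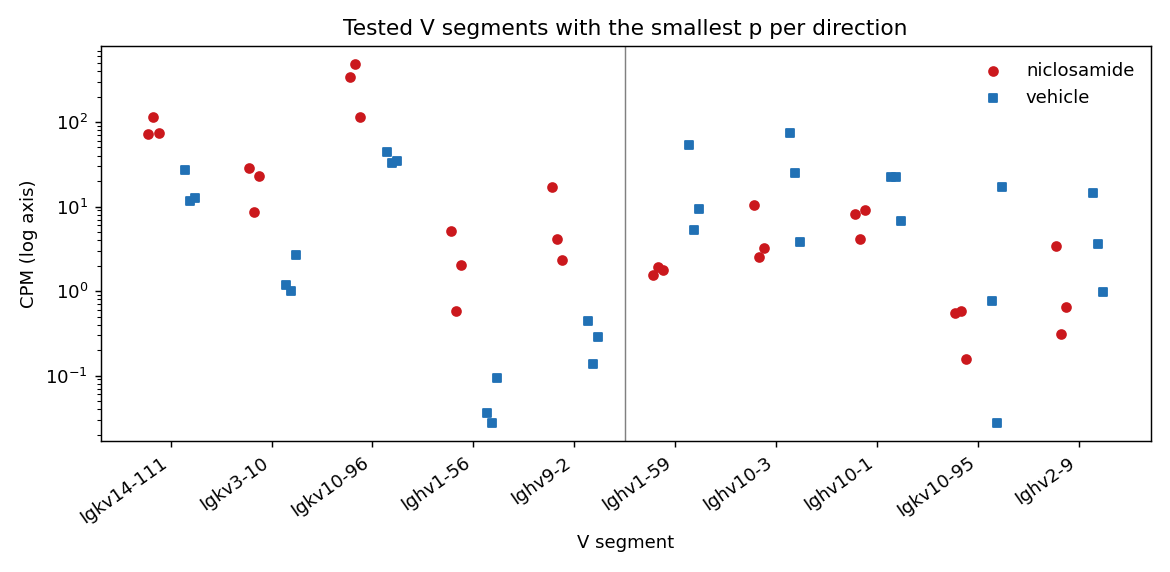
CPM on a log axis of the 5 tested segments with the smallest edgeR p among those higher with niclosamide (left of the line) and the 5 among those lower (right), with 1 point per library. Igkv14-111, Igkv3-10, Igkv10-96, Ighv1-56 and Ighv9-2 have all niclosamide points above all vehicle points, whereas 4 of the 5 on the right overlap.

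Segments typical of B-1 cells overlapped between the groups. B-1 cells are a B cell lineage abundant in the mouse peritoneal cavity, and their phosphatidylcholine-binding antibodies are typically built from Ighv11-2 with Igkv14-126 or from Ighv12-3 with Igkv4-91. Ighv11-2 had 6.05, 0.773 and 1.62 CPM with niclosamide, against 8.68, 0.659 and 3.30 CPM with vehicle, and Igkv14-126 had 12.6, 6.80 and 2.71 CPM with niclosamide, against 23.6, 1.73 and 6.41 CPM with vehicle. Both were highest in vehicle 1, whereas their lowest niclosamide library differed. Ighv12-3 had 0.884, 0.402 and 0.249 CPM with niclosamide, against 2.63, 0.247 and 0.346 CPM with vehicle, and Igkv4-91 had 62.8, 10.5 and 11.4 CPM with niclosamide, against 13.1, 2.97 and 3.83 CPM with vehicle. All 4 overlapped, with adjusted p from 0.755 to 0.970.

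Constant, D and J genes mostly had the same direction as the V segments, and none passed the test. Of 12 constant-region genes, which encode the antibody classes, 11 were tested, 9 with a positive and 2 with a negative log2 fold change, and none was called (median 1.20). Heavy V counts per heavy constant count were 0.219, 0.240 and 0.262 with niclosamide, against 0.245, 0.298 and 0.242 with vehicle, and overlapped. Of 34 D and J genes, which are short, 16 had no count, and the 7 tested all had a positive log2 fold change (median 1.54), with none called. The reason for their low counts was not tested.

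The antibody classes differed among the libraries of both groups, as their V leaders did. Ighg1, the IgG1 constant gene, made 34.1%, 1.81% and 5.53% of heavy constant counts with niclosamide, against 12.6%, 0.928% and 11.4% with vehicle. Ighm, the IgM gene, made 23.2%, 44.1% and 6.84% with niclosamide, against 30.9%, 8.82% and 12.3% with vehicle. Both shares overlapped. Igha, the IgA gene, made 22.7%, 30.8% and 72.8% with niclosamide, against 42.9%, 79.6% and 71.6% with vehicle, and overlapped. Ighg2c, an IgG gene of C57BL/6 mice, had 2114, 2708 and 302 CPM with niclosamide, against 229, 122 and 52.9 CPM with vehicle (log2 fold change 3.67 ± 0.94 SE, adjusted p = 0.594). Igha had 4097, 4141 and 3110 CPM with niclosamide, against 2141, 2061 and 2656 CPM with vehicle (0.73 ± 0.22 SE, adjusted p = 0.619). Neither overlapped between the groups and neither passed the test. Whether a V leader and a constant gene lie in the same transcript cannot be read from gene counts.

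The genes that cut V segments for joining were near or at 0. Rag2, which acts as a pair with Rag1, had no count in any library, and Rag1 had 0, 0 and 2 counts with niclosamide, against 0, 0 and 1 with vehicle. Of 7 genes on the list for assembly and mutation, 4 were tested, 2 with a positive and 2 with a negative log2 fold change, and none was called.

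Marker sums of B cells overlapped between the groups, and those of antibody-secreting cells did not, a gap that was lost without Igj. Of 12 B cell markers 11 were in the table, and they summed to 210, 144 and 97.1 CPM with niclosamide, against 217, 50.3 and 129 CPM with vehicle. These groups overlapped, with 7 markers at a positive and 4 at a negative log2 fold change. The 12 markers of antibody-secreting cells summed to 4501, 5032 and 2676 CPM with niclosamide, against 2139, 1853 and 2099 CPM with vehicle. These did not overlap, but most of the sum was Igj, the joining chain of secreted IgM and IgA, with 3163, 3489 and 1605 CPM with niclosamide, against 968, 804 and 1091 CPM with vehicle (1.53 ± 0.33 SE, adjusted p = 0.530). Without Igj the other 11 summed to 1338, 1543 and 1071 CPM with niclosamide, against 1171, 1048 and 1008 CPM with vehicle, which overlapped, as 9 of the 11 did singly. The exceptions, Tnfrsf17 and Derl3, were both higher. Tnfrsf17 had 2.72, 3.52 and 2.61 CPM with niclosamide, against 1.31, 1.29 and 1.54 CPM with vehicle. Derl3 had 21.2, 15.1 and 6.47 CPM with niclosamide, against 6.05, 5.30 and 6.44 CPM with vehicle. Of all 12 markers, 11 had a positive and 1 a negative log2 fold change. None of either list was called, no marker of either list was at 0 in all libraries, and their part in the V counts was not tested.

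**Figure D5:**
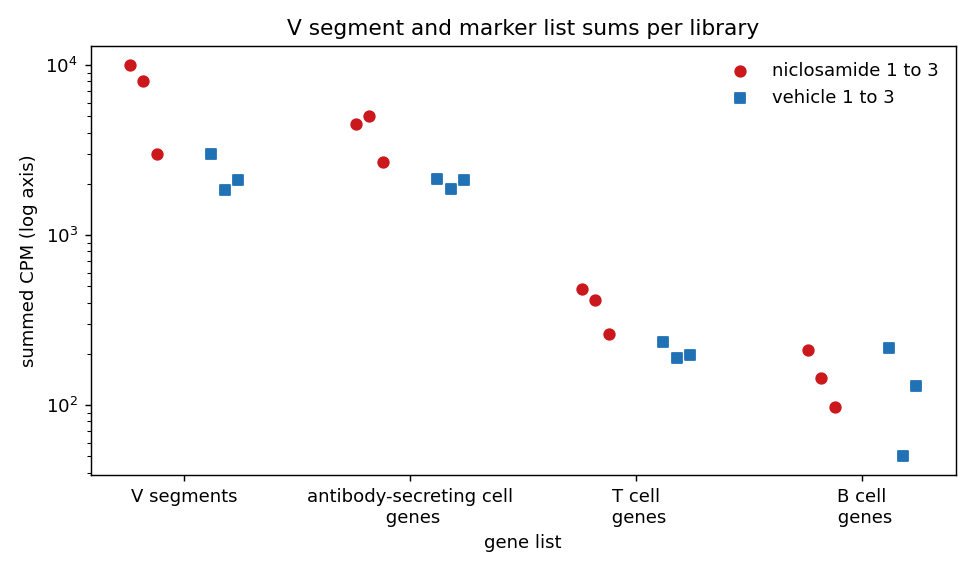
Summed CPM on a log axis of the V segments and of the antibody-secreting cell, T cell and B cell marker lists, with niclosamide 1 to 3 (circles) left of vehicle 1 to 3 (squares) in each list. The first 3 lists have all niclosamide points above all vehicle points, which for antibody-secreting cell genes rests on Igj, and the B cell sums overlap.

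Other tissue markers also differed among the libraries with more V counts. The 7 T cell genes summed to 483, 414 and 262 CPM with niclosamide, against 235, 188 and 197 CPM with vehicle, without overlap and with none called. The 6 skeletal muscle genes of the recipient wall summed to 26385, 633 and 9236 CPM with niclosamide, against 3651, 8440 and 9012 CPM with vehicle, so that niclosamide 1 and 2, the libraries with most V counts, were at opposite ends. The 6 uterine epithelium genes summed to 557, 4688 and 1345 CPM with niclosamide, against 5820, 2656 and 3722 CPM with vehicle. The 6 genes of lymph node stroma summed to 191, 165 and 146 CPM with niclosamide, against 217, 90.5 and 212 CPM with vehicle, and overlapped. The 5 structural RNAs, a sign of RNA handling, summed to 6475, 3688 and 1827 CPM with niclosamide, against 10504, 5840 and 8498 CPM with vehicle. Most of this sum was Rn18s-rs5, which overlapped. The other 4 of the 5, Rn7sk, Rmrp, Rpph1 and Rny3, were lower in each niclosamide library than in any vehicle library. Such a gap was seen in 6.37% of all genes tested. Their log2 fold changes were -2.51 to -2.92, and none was called. The 5 adipocyte genes summed to 473, 36.3 and 64.1 CPM with niclosamide, against 165, 101 and 55.3 CPM with vehicle, highest in niclosamide 1, and the 4 mesothelium genes to 103, 139 and 104 CPM with niclosamide, against 213, 81.2 and 116 CPM with vehicle. Markers of these tissues were thus present in all libraries, and the part of tissue makeup and RNA handling in the V counts was not tested.

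Among 13915 genes outside the immunoglobulin loci, the ones whose CPM followed the V sum most closely over the 6 libraries were Vps26a, Itgal, Hpse, Tmem123 and Bhlha15, with Pearson r of 0.996 to 0.998. Bhlha15 encodes MIST1, a transcription factor of plasma cells and other secretory cells, and had 8.26, 7.82 and 3.45 CPM with niclosamide, against 3.17, 2.09 and 2.48 CPM with vehicle. Itgal, the alpha chain of the leukocyte integrin LFA-1, had 162, 137 and 78.1 CPM with niclosamide, against 79.3, 64.2 and 67.8 CPM with vehicle. These genes were picked as the highest of 13915, over 6 points dominated by niclosamide 1 and 2, so such values describe the libraries only.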

How the data were processed

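RNA was measured in 6 lesion libraries. The authors deposited raw counts of reads for each gene symbol, beside the summed exon length of the gene as the other deposited value. Per the file headers, featureCounts counted reads over exons with the reverse-strand setting, and no option to count reads aligning to several places or overlapping several genes appears there. The submitters' processing notes name bcl2fastq 1.8.4, Trimmomatic 0.33, STAR 2.4.2a, Subread 1.4.6-p4, edgeR 3.12.0 and build GRCm38.p3.

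All genes were tested together, niclosamide over vehicle, with edgeR 4.0.16 in R 4.3.3: filterByExpr (minimum count 10, minimum total 15), TMM scaling (factors 0.945 to 1.047), a robust quasi-likelihood fit and Benjamini-Hochberg adjustment over 17364 genes, with a threshold of 0.05. SE was obtained as the size of the log2 fold change divided by the root of the F statistic. The procedure was tested on simulated data in which every gene had a dispersion of 0.05, a value not estimated from these data. That run does not cover the spread of the V segments. CPM uses TMM-scaled totals, except in the limits for a count of 0. Repertoire measures were computed with Python 3.11.15 from counts per library and carry no test, and levels are counts of a segment, not per length. Identities and unique windows came from GENCODE M21 transcripts, for 297 and 346 of the 348 segments. Alternatives were RLE and upper-quartile scaling, DESeq2 1.42.0, limma-voom 3.58.1, other filters, thresholds and minimum counts, counts per kilobase, the replicate block and leaving out each library. The sum of secreting-cell markers without Igj was added after seeing the data.

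Named segments were the 3 highest of each heavy and kappa locus per library, the lambda segments, the 5 of smallest p per direction, the 3 private segments of highest count (with 1 tied) and the B-1 segments. The members and lists were chosen with earlier results of these data known. No column of another sample was used. Single values of some listed genes are not reported here.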

Additional observations from a re-analysis of the deposited data

How the results depend on the processing

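By edgeR, the count of segments called was 0 under RLE and upper-quartile scaling, other filters, an adjusted p under 0.10, limma-voom, and without each library in turn (lowest 0, highest 0), while DESeq2 called 21. Replicate numbers gave no evidence of pairing: same-numbered libraries had correlations of deviations of -0.08, -0.09 and 0.27, and niclosamide 1 and 2 correlated best with another number. The replicate block also gave 0 calls. It could not change the V difference of 1.45, since each replicate number holds 1 library per group. The log2 difference of the V sum was 1.11 to 1.98 without each library in turn, and 1.24 without the 3 leading segments of each locus, an alternative chosen after seeing the data. The difference in segments seen was 2.83 to 14.8 without each library and -8.73 at equal V counts. The difference in the top 10 share was -0.30 to 15.5 points, in effective heavy segments -9.08 to -0.39 and in effective kappa segments -8.43 to -0.15. The 1 private segment became 2 at 5 counts and 0 at 20 counts, and 0 to 2 without each library. The 18 segments dominated by 1 library became 3 at over 90% and 73 at over 60% of summed CPM. The log2 fold change of Igkv10-95 ran from -4.36 to 0.16 without each library in turn, reversed without vehicle replicate 3. The causes were not tested. Adjusted p of Igkv14-111, Igkv3-10, Igkv10-96, Ighv9-2, Ighv1-56 and Ighv1-59 ran over the alternatives from below 0.05, by DESeq2, to 1.00. Promoter motifs and recombination signals were not analysed here. Depth limits what the rarest segments show: 22 of 26 seen in 1 library had 2 counts or fewer.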
